A study of Mus musculus with 12 samples.

Results

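The cytosolic ribosomal protein genes encode the protein parts of the large and small subunits of the ribosome that works in the cytosol. They were taken as the protein-coding rows whose symbol begins with Rpl or Rps followed by a number and any letters, with Rplp0, Rplp1, Rplp2, Rpsa and Fau added. A minimum of 100 estimated counts summed over the 12 libraries was required. Of 78275 gene IDs, 86 have a matching symbol and 81 reach the minimum, 48 of them of the large subunit and 33 of the small subunit. The lowest sum inside the minimum was 958 estimated counts, of Rpl35rt, and the highest outside it was 48.0, of Rpl27rt. The rule uses no measured value beyond that minimum, but it was chosen with earlier results of these data known. All 81 genes passed the filter on low counts.

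The cells are C2C12, an established mouse myoblast line that forms myotubes once serum is reduced. All 4 groups are the same line, transfected with an siRNA with Lipofectamine, and each has 3 libraries. Induced Zfp143 siRNA cells and induced control siRNA cells were moved, 24 hours after transfection, into medium with 1% horse serum for 5 days. Uninduced Zfp143 siRNA cells and uninduced control siRNA cells were harvested at 24 hours in medium with 10% fetal bovine serum. The control siRNA targets no gene, and the other siRNA targets Zfp143, which encodes the zinc finger transcription factor ZNF143. Induced cells were therefore also harvested later after transfection and in another serum than uninduced cells, which cannot be told apart from induction itself. Whether the 3 libraries of each group were grown separately is not stated, and p-values therefore measure the spread between these samples, which may be technical.

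Ribosomal proteins are among the most abundantly transcribed gene products of a growing cell, and the subunits hold most of them in single copy. They are therefore made in matched amounts together with ribosomal RNA. In vertebrates their messages begin with a cytosine and a run of pyrimidines, the 5′ terminal oligopyrimidine (TOP) tract, through which mTOR and the La-related protein LARP1 control their translation and stability. MYC promotes transcription of ribosomal protein genes and of RNA polymerase I products. Myoblasts that stop dividing lower ribosome production, while growing muscle fibres raise it again.

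The letters at the transcription start are shown for 7 genes that the results below turn on, because the TOP tract is what these genes are known to share. The sequences come from the RefSeq promoter table of build GRCm38.p6, on the gene's own strand, with 15 bases on each side of the boundary, so that base 16 is the annotated start. Capitals mark the longest run of C and T near the start, which need not be a TOP tract. Base 16 was a C inside the run in Rpl14, Rpl15 and Rpl28. It was not a C in Rpl12, Rpl13a, Rpl37a or Rps9, and the run of Rpl13a goes on past the window. The windows are chr2:32961697-32961726 (plus strand) for Rpl12, chr7:45128731-45128760 (minus) for Rpl13a, chr9:120571502-120571531 (plus) for Rpl14 and chr14:18270972-18271001 (minus) for Rpl15. They are chr7:4792950-4792979 (plus) for Rpl28, chr1:72711245-72711274 (plus) for Rpl37a and chr7:3704026-3704055 (plus) for Rps9. Rpl12 and Rpl13a had among the largest falls with induction, Rpl15 and Rpl37a were among the genes that did not pass the test there, and Rpl14, Rpl28 and Rps9 were the genes called with the siRNA.
Rpl12: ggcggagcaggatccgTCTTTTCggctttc
Rpl13a: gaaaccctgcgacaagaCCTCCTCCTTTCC
Rpl15: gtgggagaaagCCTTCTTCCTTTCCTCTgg
Rpl37a: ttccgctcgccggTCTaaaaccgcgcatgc
Rpl14: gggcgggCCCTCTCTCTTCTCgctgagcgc
Rpl28: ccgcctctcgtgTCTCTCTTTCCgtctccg
Rps9: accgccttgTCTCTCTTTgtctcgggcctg

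The table holds a window for 60 of the 81 genes and for 27025 genes in all. A C at the annotated start followed by at least 4 more C or T was present in 15 of the 60 genes (25%), against 3.01% of all genes. A run of at least 8 C or T that reaches within 5 bases of the start was present in 24 of the 60 (40%), against 11% of all genes. The letters CTTTCC on the gene strand, which can lie inside such a run, were found within 10 bases of the start in 9 of the 60 (15%) and in 0.995% of all genes. The letters ACTACAA, taken from the ZNF143 motif, were sought on either strand anywhere in the 300 bases. They were found in Rpl15, Rpl41 and Rps9, 3 of the 60 (5%), against 3.78% of all genes. No other letters of that motif were searched, so sites without ACTACAA are not counted. The ribosomal protein windows thus held pyrimidine starts at a higher share than all windows, and the ACTACAA letters at a share near that of all windows. A match is a description of letters, not a bound site, and the annotated start may not be the one used in these cells.

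Depth and the libraries that stand apart come before the results. Library totals were 13.5 to 19.1 M estimated counts, lowest in induced Zfp143 siRNA replicate 1. Mitochondrially encoded genes made up 1.95% of that library and 6.02% of uninduced control replicate 3, while the other 10 libraries lay between 2.63% and 3.95%. Zfp143 stood at 12.2, 11.9 and 10.1 CPM (counts scaled to a common library size with TMM factors, the usual CPM unit) in uninduced Zfp143 siRNA cells, against 23.2, 27.8 and 39.8 CPM in uninduced control cells. In induced Zfp143 siRNA cells it stood at 14.7, 16.8 and 19.7 CPM, against 19.7, 19.3 and 19.2 CPM in induced control cells. Zfp143 was thus lower with its siRNA in uninduced cells (log2 fold change -1.41, SE 0.18; edgeR adjusted p = 6.12e-05) but not past the test 5 days into induction (-0.18, SE 0.18; adjusted p = 0.646). Of the 8 muscle markers, 7 rose with induction in control cells, with Acta1 the most abundant at a mean of 4210 CPM in induced control cells against 0.127 CPM in uninduced control cells. Of 4 markers listed for each kind below, 3 fibroblast, 3 leukocyte, 2 endothelial, 2 cardiac, 1 epithelial and 1 adipocyte marker passed the filter on low counts. The sums that follow may leave out the rest. Fibroblast markers summed to 852 to 960 CPM in induced control cells and 52.4 to 61.4 CPM in uninduced control cells, with Dcn the most abundant. Endothelial markers summed to at most 4.99 CPM in any library and epithelial ones to at most 8.90 CPM, with Epcam at 0 throughout. The most abundant epithelial marker was Krt8, at a mean of 8.5 CPM in induced control cells and 0.0 CPM in uninduced control cells. Adipocyte markers (mostly Lpl) summed to 225 to 521 CPM, and leukocyte markers (mostly Cd14) to 17.1 to 38.4 CPM. Cardiac markers summed to at most 2.46 CPM outside induced control cells, where Myh6 was the most abundant at 15.1 CPM. The part of such cells in the results below was not tested, and in bulk RNA fewer cells of a kind and less of a message per cell cannot be told apart.

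The share of estimated counts taken by ribosomal protein genes was lower in all 6 induced libraries than in all 6 uninduced ones. The 81 genes together took 3.61%, 4.01% and 3.48% of the estimated counts in induced Zfp143 siRNA cells (replicates 1 to 3) and 3.86%, 3.52% and 3.24% in induced control cells. They took 8.73%, 7.21% and 7.90% in uninduced Zfp143 siRNA cells and 6.62%, 5.91% and 9.11% in uninduced control cells. Induced and uninduced libraries did not overlap, whereas the siRNA groups overlapped within each state. In uninduced cells the overlap came from uninduced control replicate 3 alone, without which the control mean was 6.27%. The group means were 3.70 ± 0.276%, 3.54 ± 0.311%, 7.94 ± 0.760% and 7.21 ± 1.68% in the same order (SD, n = 3 each). As a share of TPM, a measure that divides counts by transcript length before scaling each library to the same sum, the means were 12.8 ± 0.809%, 12.5 ± 0.898%, 21.98 ± 1.46% and 20.6 ± 2.12%. In control cells the induced mean was 0.491 of the uninduced mean by counts and 0.606 by TPM, so the fall was smaller by TPM. No p-value is given for these sums over genes.

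**Figure D1:**
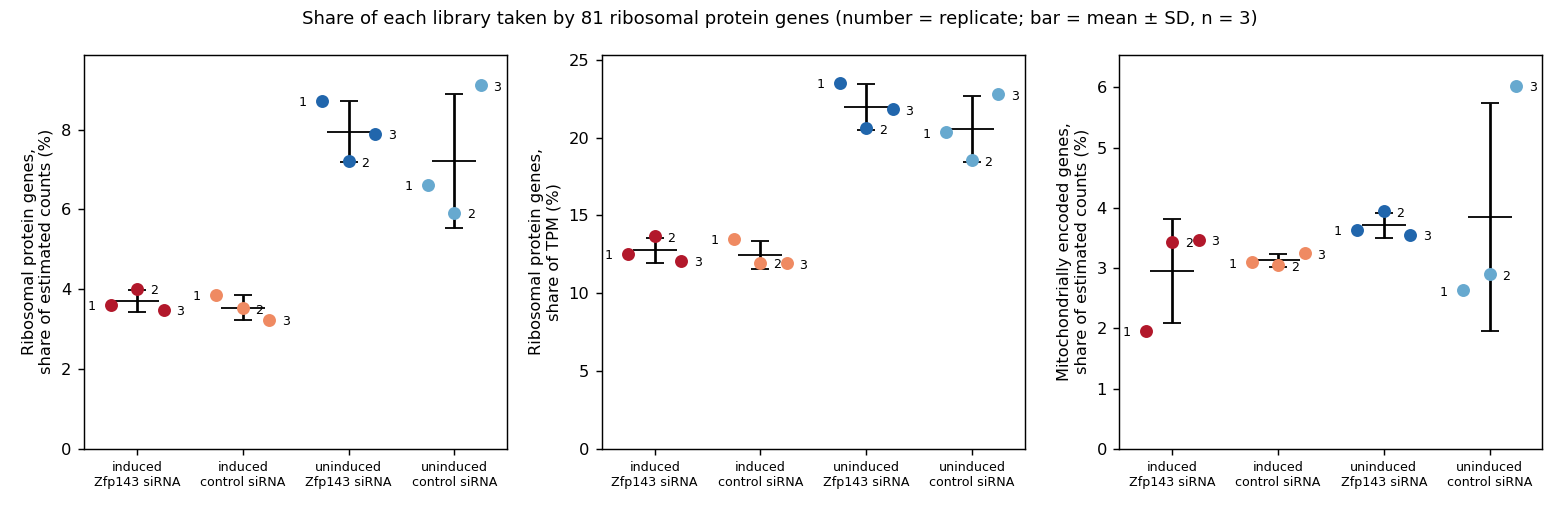
Percent of the estimated counts (left) and of TPM (middle) taken by the 81 ribosomal protein genes, and percent of the estimated counts taken by mitochondrially encoded genes (right), in each library. Points are libraries with their replicate number, and bars are the mean ± SD of 3; the 6 induced libraries lie at 3.24% to 4.01% in the left panel and the 6 uninduced ones at 5.91% to 9.11%, with uninduced control replicate 3 highest there and in the right panel.

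Within a group, the genes moved up and down together. Uninduced control replicate 3 held the highest CPM of its group for 76 of the 81 genes, with a median of 0.90 log2 units over the mean of the other 2 libraries. Part of that distance is scaling. Its TMM factor was 0.799, against 0.991 and 0.983 for replicates 1 and 2, and a lower factor raises the CPM of every gene in a library. The 5 exceptions were Rpl8, Rpl28, Rplp2, Rps2 and Rps13. Uninduced Zfp143 siRNA replicate 1 was highest for 80 genes and replicate 2 lowest for 80, and induced control replicate 1 was highest for 76. Each gene's deviations from its group means were set against the median deviation of all other ribosomal protein genes over the 12 libraries. The median of these correlations was 0.957 and 62 genes were above 0.9, a description that includes the shared library scaling. The lowest values were those of Rplp2, which encodes a protein of the acidic stalk that recruits translation factors (-0.0313), Rps2 (0.115) and Rpl8 (0.381). Rps2 and Rpl8 are core proteins of the small and the large subunit. Next came Rps13 (0.471) and Rpl28 (0.506), so the 5 lowest were the 5 exceptions named above. The median distance was largest in uninduced control replicate 3, so these correlations depend heavily on that library.

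**Figure D2:**
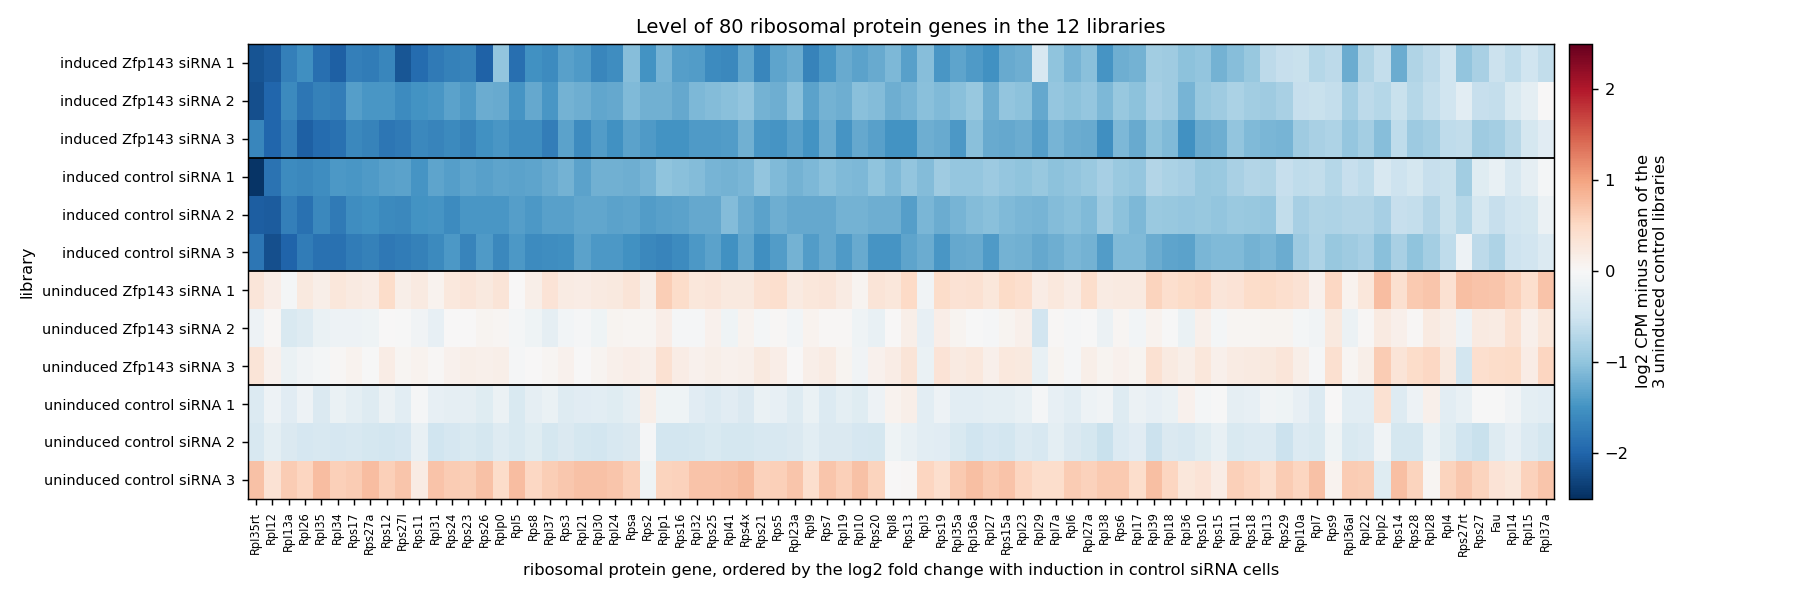
Level of 80 of the 81 genes (columns, ordered by log2 fold change with induction in control cells) in each of the 12 libraries (rows), as log2 CPM minus the mean of the 3 uninduced control libraries. Blue is lower and red is higher; the 6 induced rows are blue for nearly all genes, and uninduced control replicate 3 is red for most genes, with Rplp2 among the exceptions.

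Most ribosomal protein genes fell with induction in control siRNA cells. Of the 81 genes, 77 were lower and none was higher (edgeR quasi-likelihood test, adjusted p under 0.05 over 15030 genes; background 30.9% of all tested genes lower and 33.2% higher). The unadjusted count was 78 genes, all lower (background 67.1% in either direction), and the DESeq2 and limma-voom counts were 77 and 76. The median log2 fold change was -1.22, against 0.03 over all genes, and the middle of the distribution lay between -1.42 and -1.01 (quartiles). A fall of more than 1 log2 unit was seen in 61 genes (background 2333 of the 15030 genes). In 75 genes the ranges of the groups did not overlap (background 32.4% lower without overlap). The large subunit had 45 of 48 genes lower with a median of -1.20, and the small subunit 32 of 33 with a median of -1.31. Other genes of high level, the 115 whose TPM is at least that of the 10th lowest ribosomal protein gene, had 56 lower and 28 higher with a median of -0.57. Without uninduced control replicate 3, 73 genes were lower (background 29.2%) and the median was -0.91. Without induced Zfp143 siRNA replicate 1 as well, 73 genes were lower (background 32.1%) and 1 was higher (background 35.3%).

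Rpl12 and Rpl13a were among the genes that fell most. Rpl12 forms the base of the stalk on the large subunit. It stood at 623, 530 and 487 CPM in induced control cells, against 2060, 1882 and 2880 CPM in uninduced control cells, with no overlap (log2 fold change -2.06, SE 0.16; edgeR adjusted p = 5.43e-08). That is 24.0% of the uninduced level. Rpl13a, whose human product is also released from the ribosome in interferon-treated monocytic cells, stood at 475, 431 and 356 CPM in induced control cells. It stood at 1162, 1111 and 2208 CPM in uninduced control cells (-1.83, SE 0.22; adjusted p = 4.86e-06). The groups did not overlap, and uninduced control replicate 3 was far above the other 2. Rpl35rt had a log2 fold change of -2.17 (SE 0.32; adjusted p = 2.72e-05) at only 1.2 to 1.9 CPM in induced control cells and 5.20 to 11.4 CPM in uninduced control cells. It is a retrocopy of Rpl35, so how counts are split between it and Rpl35 is uncertain, and Rpl35 itself fell by 1.78 (SE 0.24; adjusted p = 1.91e-05).

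Among the 4 genes that missed the test were Rpl37a, Rpl15 and Rps27rt. Rpl37a stood at 328, 307 and 266 CPM in induced control cells, against 283, 249 and 546 CPM in uninduced control cells (log2 fold change -0.26, 95% interval -0.78 to 0.26; adjusted p = 0.371). The ranges overlapped, with uninduced control replicate 3 above all the others, and without that library the sign turned (0.17, adjusted p = 0.400). Rpl15 had a log2 fold change of -0.44 (interval -0.87 to -0.01; adjusted p = 0.0708). It passed the test when uninduced control replicate 1 or 2 was left out (adjusted p = 0.0273 and 0.0178), and had -0.09 without uninduced control replicate 3 (adjusted p = 0.531). Rps27rt, a low retrocopy of Rps27 at 3.20 to 5.30 CPM in induced control cells and 4.10 to 9.30 CPM in uninduced control cells, had -0.62 (interval -1.37 to 0.13; adjusted p = 0.136). With no filter on low counts Rpl15 and Rps27rt both passed (adjusted p = 0.0134 and 0.0339). Rpl37a and Rpl35rt were among the members more than 3 scaled median absolute deviations from the median of the 81. Among the genes called, the smallest falls without overlap were those of Rpl14 (-0.48, SE 0.14; not called with library size scaling, adjusted p = 0.0622), Rpl4 (-0.63, SE 0.19; -0.31 without uninduced control replicate 3) and Rpl28 (-0.73, SE 0.14). Rpl4 helps line the exit tunnel of the large subunit.

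The same genes can be set against the median of the 81 within each library, which removes shared library scaling. On this log2 scale Rpl12 was 0.63, 0.49 and 0.52 above the median in induced control cells and 1.54, 1.58 and 1.24 above it in uninduced control cells. Every induced control library lay below every uninduced one, uninduced control replicate 3 included. Over both siRNAs, 13 genes lay above and 14 below every uninduced library in all induced libraries, and 54 overlapped. These counts are a description with no test, and no share over all genes was computed beside them. Because each value is set against the median of the 81 genes themselves, changes on both sides are built in.

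Induction in Zfp143 siRNA cells gave much the same list. There 80 of the 81 genes were lower and none higher (edgeR adjusted p under 0.05; background 30.1% lower and 36% higher), with a median of -1.40 on the log2 scale, against 0.10 over all genes. The ranges did not overlap in 79 genes (background 33.7% lower without overlap). Rps27rt alone missed the test (-0.73, SE 0.35; adjusted p = 0.0804), and it passed without uninduced Zfp143 siRNA replicate 3 (adjusted p = 0.0365). Rpl12 stood at 527, 568 and 564 CPM in induced Zfp143 siRNA cells, against 2519, 2270 and 2395 CPM in uninduced Zfp143 siRNA cells (-2.11, SE 0.16; adjusted p = 4.80e-08). Rpl34, a large subunit protein, stood at 176, 220 and 200 CPM in induced cells, against 880, 666 and 746 CPM in uninduced cells of this siRNA (-1.94, SE 0.22; adjusted p = 2.70e-06). Neither gene overlapped between states.

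Among the smallest called changes without overlap in Zfp143 siRNA cells were those of Rpl15 (-0.64, SE 0.20; adjusted p = 0.0120) and Rpl7 (-0.68, SE 0.23; adjusted p = 0.0179). The calls of Rpl15 and Rpl7 were lost without uninduced Zfp143 siRNA replicate 1 (adjusted p = 0.0524 and 0.0568), and that of Rpl7 also without induced replicate 3 (0.0605). Across the 81 genes the log2 fold changes of the 2 inductions, which share no library, had a Pearson r of 0.861 and a Spearman rho of 0.863, and 77 genes were lower in both. Genes are not independent replicates, and no p-value is given. No correlation or count over all genes is given beside these values, so they do not set these genes apart. The level of a gene had little relation to its change in control cells (Pearson r 0.0167, Spearman rho -0.11, over 81 genes).

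**Figure D3:**
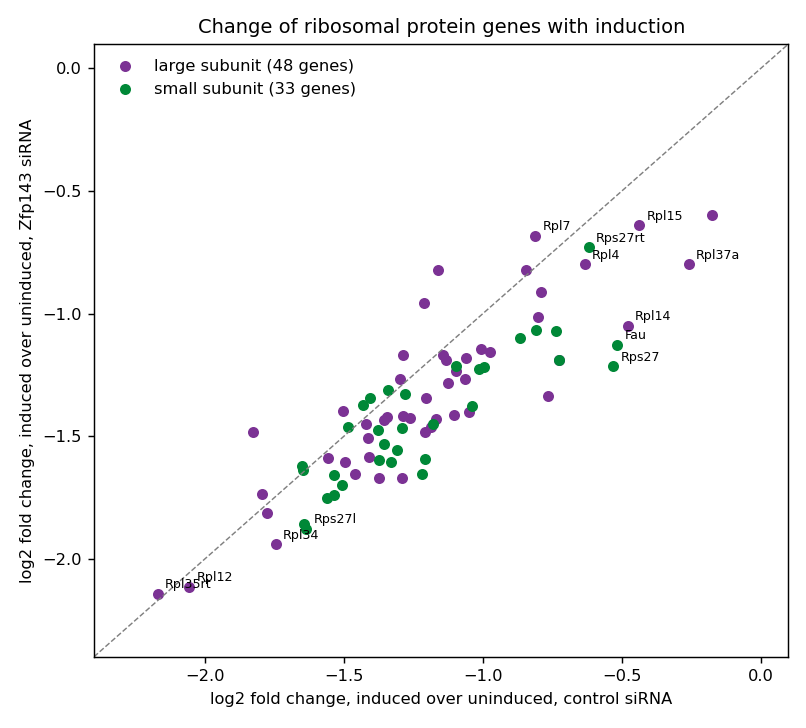
Log2 fold change of each of the 81 genes with induction in control siRNA cells (horizontal) and in Zfp143 siRNA cells (vertical), coloured by subunit, with the line of equal change dashed. All 81 points lie below 0 on both axes, 65 lie under the line, and Rpl37a and Rpl15 lie toward the upper right.

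The stalk genes Rplp0, Rplp1 and Rplp2 had log2 fold changes of -1.50, -1.37 and -0.77 in control cells, each past the test (adjusted p = 1.23e-05, 0.000116 and 0.0046). Rps27a, which encodes a ribosomal protein fused to ubiquitin, fell by 1.65 (SE 0.25; adjusted p = 4.33e-05), and Fau, fused to a ubiquitin-like protein, fell by 0.52 (SE 0.19; adjusted p = 0.0278) with ranges that overlap. The Fau call was lost without uninduced control replicate 3 (-0.34, adjusted p = 0.101). Rpl5 and Rpl11, which bind 5S ribosomal RNA and can hold MDM2 away from p53, fell by 1.498 (SE 0.25; adjusted p = 9.22e-05) and 1.01 (SE 0.21; adjusted p = 0.00062), and without that library Rpl11 had -0.65. The most abundant genes by TPM were Rps24, Rps12 and Rps15 of the small subunit and Rpl41, Rpl23a and Rplp1 of the large. Rps24 averaged 3989 TPM in induced control cells and 7881 TPM in uninduced control cells, and Rpl41, the shortest ribosomal protein, 3576 and 6274 TPM. Over the whole set, the median level was 1421 TPM in induced Zfp143 siRNA cells, 1441 TPM in induced control cells, 2504 TPM in uninduced Zfp143 siRNA cells and 2324 TPM in uninduced control cells.

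Paralogs did not all keep their proportion to the parent gene. Rps27l, a paralog of Rps27 that p53 can activate, stood at 15.1, 15.6 and 15.3 TPM per 100 TPM of Rps27 in induced control cells, against 28.1, 35.7 and 36.1 in uninduced control cells. In Zfp143 siRNA cells the ratio was 11.6, 15.98 and 17.5 when induced, against 22.0, 28.8 and 25.5 when uninduced. The ratio was lower in every induced library. Rps27l itself fell by 1.64 in control cells (SE 0.24; adjusted p = 2.76e-05), while Rps27 fell by 0.53 (SE 0.22; adjusted p = 0.0469). The Rps27 call was lost without any one of 5 libraries, and without uninduced control replicate 3 its log2 fold change was -0.21 (adjusted p = 0.302). It was also lost with RLE factors, library size scaling, limma-voom, a fit of the compared groups alone or a replicate block (adjusted p 0.0506 to 0.148).

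Rpl36al, a paralog of Rpl36a, ran the other way, at a mean of 43.0 ± 1.01 TPM per 100 TPM of Rpl36a in induced control cells and 32.6 ± 2.29 in uninduced control cells (SD, n = 3 each). Both genes fell, by 0.80 for Rpl36al and 1.21 for Rpl36a (adjusted p = 0.0043 and 0.000723). The log2 fold changes were -0.42 for Rpl36al and -0.73 for Rpl36a without uninduced control replicate 3, both past the test. Rpl22l1, a paralog of Rpl22 that lies outside the rule, stood at 81.5, 70.3 and 80.7 TPM per 100 TPM of Rpl22 in induced control cells, against 35.8, 39.7 and 48.9 in uninduced control cells. In Zfp143 siRNA cells the ratio was 42.9, 76.0 and 88.1 when induced, against 48.95, 53.3 and 52.8 when uninduced, which overlap because of induced replicate 1. In control cells Rpl22 fell by 0.79 (SE 0.20; adjusted p = 0.00291; -0.43 without uninduced control replicate 3), and Rpl22l1 had a log2 fold change of -0.18 (SE 0.30; adjusted p = 0.627). Rpl7l1, a paralog of Rpl7 outside the rule that works in ribosome assembly, fell by 1.53 (SE 0.17; adjusted p = 1.86e-06), while Rpl7 fell by 0.81 (SE 0.23; adjusted p = 0.00681; -0.36 without uninduced control replicate 3). Rpl3l, the form of Rpl3 that is known from mature skeletal and heart muscle, had 4 counts over the 3 induced Zfp143 siRNA libraries, 5 over the induced control libraries, 1 over the uninduced Zfp143 siRNA libraries and 3 over the uninduced control libraries. It was thus near the limit of detection throughout, while Rpl3 averaged 1082 TPM in induced control cells and 1761 TPM in uninduced control cells. Rpl10l, Rpl39l and Rps4l had 0 counts in all libraries. Reads from near-identical copies may have been assigned to either copy, and pseudogenes of these genes (323 IDs) took 2.85 to 3.80 counts per 100 counts of the 81 genes.

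In uninduced cells, Zfp143 siRNA called 3 of the 81 genes higher and none lower (edgeR adjusted p under 0.05; background 15.4% higher and 17.1% lower). The median log2 fold change was 0.09, against -0.04 over all genes, with 60 genes positive and 21 negative. An unadjusted p under 0.05 was reached by 5 genes (background 42.6% in either direction), and DESeq2 called 5 and limma-voom 3. Rpl28 stood at 778, 564 and 687 CPM in Zfp143 siRNA cells, against 524, 429 and 494 CPM in control cells (0.49, SE 0.14; adjusted p = 0.0184). Rpl14 stood at 886, 763 and 812 CPM in Zfp143 siRNA cells, against 554, 509 and 709 CPM in control cells (0.47, SE 0.14; adjusted p = 0.0207). Rps9, a core protein of the small subunit, stood at 1327, 1106 and 1229 CPM in Zfp143 siRNA cells, against 938, 859 and 992 CPM in control cells (0.39, SE 0.13; adjusted p = 0.0289). None of the 3 genes overlapped between groups. The calls of Rps9 and Rpl14 were lost without uninduced control replicate 1 or 2 or uninduced Zfp143 siRNA replicate 1 or 3 (adjusted p up to 0.130 and 0.0988), and that of Rpl28 without uninduced control replicate 2 or the same Zfp143 siRNA replicates (up to 0.106). That of Rps9 was also lost with no filter on low counts (0.0948) or a fit of the compared groups alone (0.0531). Rplp2 had the highest log2 fold change, 0.53 (SE 0.21), and missed the test (adjusted p = 0.0604). It was called with RLE factors, no filter, the length offset, DESeq2 or a replicate block (adjusted p 0.00752 to 0.0480), and without uninduced Zfp143 siRNA replicate 2 or uninduced control replicate 1 (0.0342 and 0.0137), and it reached 0.222 without uninduced Zfp143 siRNA replicate 1. Its levels were 463, 316 and 416 CPM in Zfp143 siRNA cells, against 351, 255 and 220 CPM in control cells, which overlap.

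This comparison turned on 1 library. Without uninduced control replicate 3, 59 of the 81 genes were called higher and none lower (background 19% higher and 18.2% lower), all 81 were positive, and the median was 0.46 against 0.02 over all genes. The 3 genes called with all libraries were among the 59. Rpl37a then had 0.87 (adjusted p = 0.00105), against 0.43 with all libraries. Without induced Zfp143 siRNA replicate 1 as well, 64 genes were called higher (background 22.8%). The count was 0 without uninduced control replicate 2 and likewise without uninduced Zfp143 siRNA replicate 1 or 3. Uninduced control replicate 3 is also the library with the highest share of mitochondrially encoded counts, the part of which in this result was not tested.

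**Figure D4:**
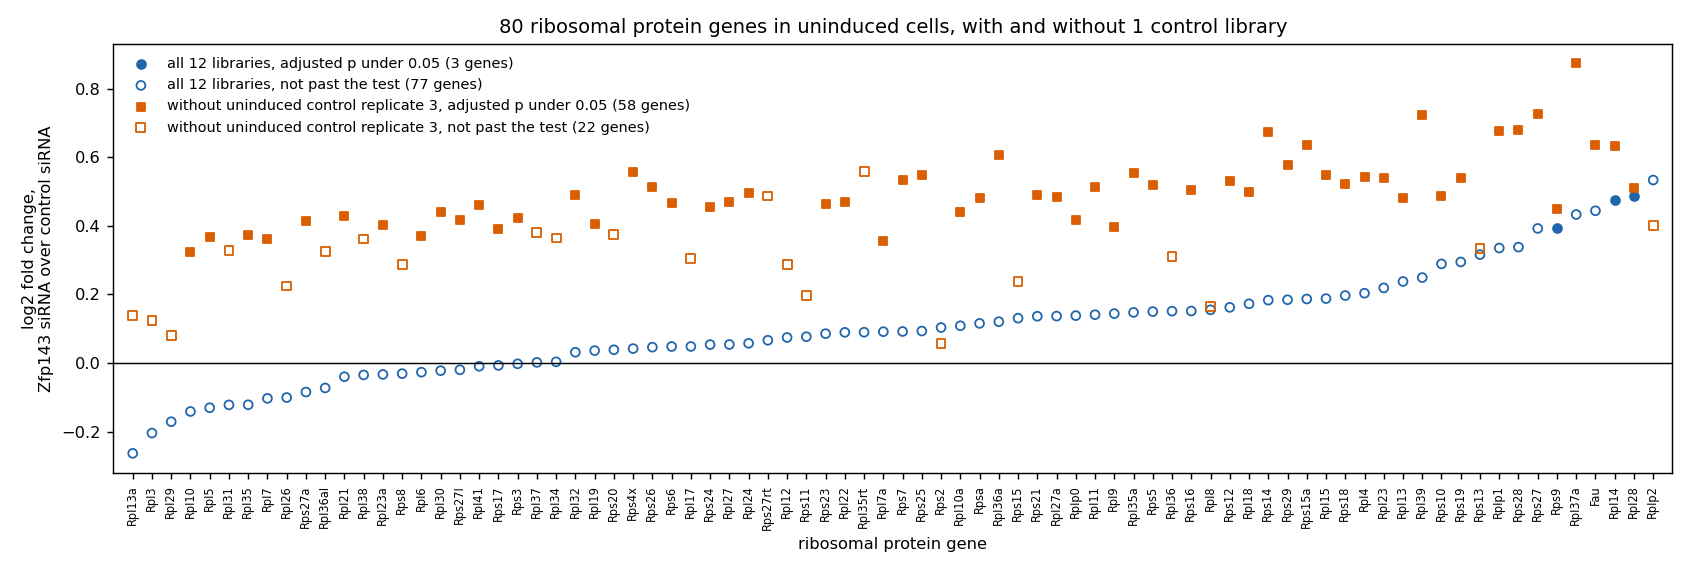
Log2 fold change of 80 of the 81 genes in uninduced cells, Zfp143 siRNA over control siRNA, with all 12 libraries (circles) and without uninduced control replicate 3 (squares). Filled symbols passed the edgeR test at an adjusted p under 0.05, which of the 80 genes drawn was 3 with all libraries and 58 without that library.

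In induced cells no ribosomal protein gene was called with Zfp143 siRNA (edgeR 0 of 81, and 0 at an unadjusted p under 0.05, against 20.5% of all genes; DESeq2 and limma-voom also 0 adjusted and 0 unadjusted; background 9.49% of all genes called in either direction). The log2 fold changes ran from -0.34, of Rpl38, to 0.24, of Rplp0, with a median of -0.07, which was 0.02 with library size scaling. The median 95% interval extended 0.47 log2 units to each side, so in a typical gene smaller changes would not reach an unadjusted p under 0.05. The adjusted threshold asks for a larger change than that. Rpl38, needed for translation of a subset of Hox messages in mouse embryos, stood at 75.1, 95.9 and 72.4 CPM in induced Zfp143 siRNA cells, against 118, 112 and 78.9 CPM in induced control cells (SE 0.24; adjusted p = 0.492). Rplp0 stood at 1957, 1619 and 1399 CPM in induced Zfp143 siRNA cells, against 1548, 1403 and 1256 CPM in induced control cells (SE 0.20; adjusted p = 0.570). Both genes overlapped between groups.

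The change with induction did not differ between the siRNAs past the test in any of the 81 genes (interaction term, edgeR 0 called and 4 at an unadjusted p under 0.05, all more negative in Zfp143 siRNA cells, against 35% of all genes in either direction; DESeq2 and limma-voom 1 each; background 22.5% of all genes in either direction). The median difference was -0.17. Rpl14 had the smallest p of the 81 (-0.57, SE 0.20; adjusted p = 0.0571), and it was called with 5 of the other scalings and tests (adjusted p 0.0138 to 0.0496). Rps27 (-0.68, SE 0.31; adjusted p = 0.133), Rpl13a (0.35, SE 0.31; adjusted p = 0.467) and Rpl29 (0.34, SE 0.36; adjusted p = 0.545) lay over 3 scaled median absolute deviations from the median. Without uninduced control replicate 3, 42 genes were called, all more negative in Zfp143 siRNA cells (background 16.2% more negative), and the median difference was -0.53. Without both libraries that stand apart the count was 40 (background 19.4%). Without induced Zfp143 siRNA replicate 2 it was 1.

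Most genes of ribosome assembly fell with induction too. Of 38 ribosome assembly genes in control cells, 33 were lower and none higher, with a median of -1.79 (all genes: median 0.03, 30.9% lower). Nop56, a core protein of box C/D small nucleolar ribonucleoproteins, stood at 80.4, 84.1 and 82.4 CPM in induced control cells, against 529, 605 and 1001 CPM in uninduced control cells (-3.11, SE 0.185; adjusted p = 3.10e-09). Fbl, the methyltransferase of the same particles, fell by 2.01 (SE 0.11; adjusted p = 7.80e-10), and the 40S processing factor Nop14 by 2.23 (SE 0.11; adjusted p = 2.99e-10). Of 15 RNA polymerase I genes, 13 were lower (median -0.73), among them Ubtf (-1.43, SE 0.11) and Polr1b (-1.39, SE 0.13). Of 12 chaperones and importers of ribosomal proteins, all 12 were lower (median -1.20), for example the Rpl3 chaperone Grwd1 (-1.57, SE 0.14) and the importin Ipo5 (-1.26, SE 0.14). Of 12 gene IDs for hosts of small nucleolar RNAs, 10 were lower (median -1.85), among them Snhg12 (-2.31, SE 0.14) and Snhg15 (-1.69, SE 0.12).

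Of 21 translation factor genes whose messages also carry a TOP tract, 15 were lower and 2 higher in control cells (median -0.73; all genes: 30.9% lower, 33.2% higher). The elongation factor subunits Eef1b2 and Eef1d fell by 1.31 (SE 0.17) and 1.09 (SE 0.13), and Rack1, which sits on the small subunit, fell by 1.19 (SE 0.16). Without uninduced control replicate 3, 12 of the 21 were lower (all genes: 29.2%) and the median was -0.39. Of 20 genes for TOR and MYC control, 9 were lower and 5 higher (median -0.11; all genes: 30.9% lower, 33.2% higher). Myc stood at 72.4, 63.2 and 78.0 CPM in induced control cells, against 293, 308 and 230 CPM in uninduced control cells (-1.96, SE 0.14; adjusted p = 1.70e-08). Mxd4, which encodes a MAX partner that opposes MYC, rose to 79.9, 72.9 and 78.3 CPM in induced control cells, against 13.2, 11.2 and 10.6 CPM in uninduced control cells (2.72, SE 0.13; adjusted p = 2.06e-10). Deptor, an mTOR inhibitor, rose by 2.54 (SE 0.15; adjusted p = 1.62e-09). Mtor itself was also called higher in control cells, at 0.29 to 0.50 with 1 library left out at a time. That call was lost without either of 2 of the 6 libraries and with the transcript length offset (adjusted p up to 0.153). With induction in Zfp143 siRNA cells Mtor had 0.96 to 1.11 with 1 library left out, and its call was kept.

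With Zfp143 siRNA in uninduced cells the lists had different counts, and no test of the difference between lists was run. Ribosome assembly genes were lower in 12 of 38 and higher in 1 (median -0.23), against 3 higher and 0 lower of the 81 ribosomal protein genes (all genes: 17.1% lower, 15.4% higher). Nop56 stood at 384, 386 and 355 CPM in Zfp143 siRNA cells, against 529, 605 and 1001 CPM in control cells (-0.92, SE 0.18; adjusted p = 0.00165; -0.59 without uninduced control replicate 3). Chaperones were lower in 6 of 12 (median -0.28), among them Tnpo1 (-0.91, SE 0.19; adjusted p = 0.00222) and Ipo5 (-0.58, SE 0.14; adjusted p = 0.00643), but 3 of 12 were lower and 1 higher without uninduced control replicate 3. Without that library ribosome assembly genes were lower in 11 and higher in 4. RNA polymerase I genes were lower in 3 of 15 and higher in 2. Ubtf was among the lower ones (-0.41, SE 0.11; adjusted p = 0.0132), which missed the test with uninduced Zfp143 siRNA replicate 1 left out (0.0713). Polr1a had -0.47 (SE 0.16; adjusted p = 0.03), lost without any one of 4 libraries (up to 0.117).

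Myc stood at 92.3, 86.2 and 104 CPM in uninduced Zfp143 siRNA cells, against 293, 308 and 230 CPM in uninduced control cells (-1.55, SE 0.14; adjusted p = 2.26e-06). Mtor was lower by a log2 fold change of -0.73 (SE 0.14; adjusted p = 0.00126), and the TOP binding protein gene Larp1 by -0.62 (SE 0.15; adjusted p = 0.00556), both kept without any one of the 6 libraries compared. TOR and MYC genes were lower in 6 of 20 and higher in 2 (all genes: 17.1% lower, 15.4% higher). Hosts of small nucleolar RNAs were higher in 4 of 12 IDs and lower in none (median 0.31). Snhg12 stood at 151, 154 and 153 CPM in Zfp143 siRNA cells, against 79.9, 71.8 and 104 CPM in control cells (0.85, SE 0.13; adjusted p = 0.000262), and Snhg6 at 25.2, 19.5 and 21.6 CPM, against 10.9, 11.1 and 12.9 CPM (0.92, SE 0.14; adjusted p = 0.000246). Neither gene overlapped between groups. Without uninduced control replicate 3 the host count was 9 of 12 higher, and that of TOP translation factors 11 of 21 higher in place of 2 (all genes: 19% higher). The 2 were Eif4a2 (0.72, SE 0.18; adjusted p = 0.00767), an RNA helicase of translation initiation, and Pabpc1, the poly(A) binding protein (0.34, SE 0.12; adjusted p = 0.0468), whose call was lost without any one of 5 libraries (up to 0.147).

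**Figure D5:**
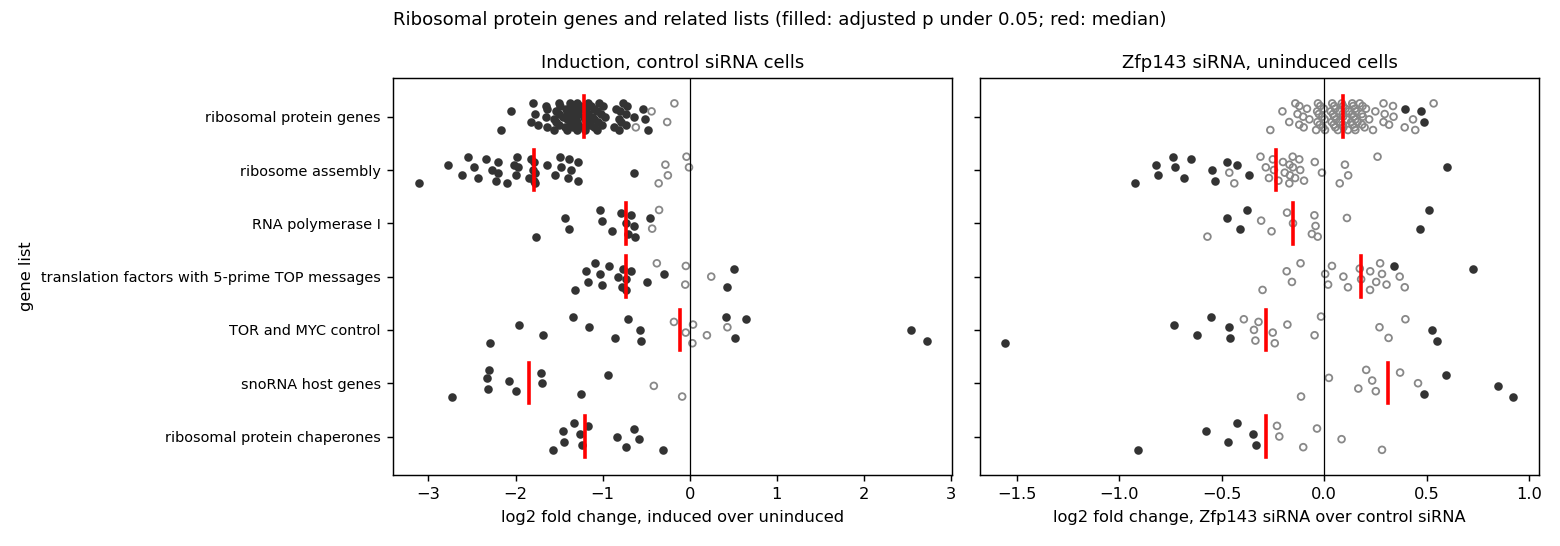
Log2 fold change of each gene of the ribosomal protein set and of 6 related lists with induction in control siRNA cells (left) and with Zfp143 siRNA in uninduced cells (right). Filled points passed the edgeR test at an adjusted p under 0.05, and red bars are list medians, which for ribosomal protein genes are -1.22 on the left and 0.09 on the right and for ribosome assembly genes -1.79 and -0.23.

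Members with a long pyrimidine run did not stand apart in either comparison by these summaries. The 24 genes with a run of 8 or more C or T near the start had a median log2 fold change of -1.10 with induction in control cells, and the 36 with a shorter run -1.29. With Zfp143 siRNA in uninduced cells the medians were 0.16 and 0.10. The ranges overlapped in both comparisons, from -1.83 to -0.44 and from -2.06 to -0.26 with induction.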

How the data were processed

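The members and the gene lists were chosen with earlier results of these data known. Polyadenylated RNA was measured with a kit that does not keep the strand, so a gene and an antisense partner over it share their reads. Per the submitters' processing notes, fastp 1.0.1, STAR 2.7.11b and Salmon were used with build GRCm39; neither their roles nor the annotation release is stated there. The deposited table holds the authors' estimated counts per gene, and up to 7.26% of a library's values are not whole. The deposited score columns hold TPM made by the authors, used for levels between genes. The authors' deposited length columns hold transcript lengths, used only as an offset in an alternative. The 12 FPKM columns were not used. In the column names of a few induced Zfp143 siRNA libraries a pair of letters is transposed, and the columns were matched by the rest of the name.

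Of 78810 lines, 535 repeat a gene ID with the same values and were dropped; 477 IDs have no symbol. Counts were rounded and fitted by edgeR 4.0.16 under R 4.3.3, with limma 3.58.1, statmod 1.5.0 and, for an alternative, DESeq2 1.42.0: TMM scaling, filterByExpr with a minimum count of 10 and total of 15, 4 group means, robust quasi-likelihood, 8 residual degrees of freedom, Benjamini-Hochberg adjustment within each of 5 comparisons. This left 15030 genes tested and 63245 untested. The fit was also run on simulated counts with the same dispersion for all genes and no library that stands apart. That run cannot show how the fit behaves with such a library. Log2 fold changes are induced over uninduced, or Zfp143 siRNA over control siRNA; the interaction is the change with induction in Zfp143 siRNA cells minus that in control cells. Named with values are the paralogs and their parents, per comparison the 3 largest and 3 smallest called changes without overlap, members over 3 scaled median absolute deviations from the member median, the 3 most abundant of each subunit, and 2 genes of smallest p per related list in each of the 2 main comparisons. Rack1, Rpl5, Rpl11, Rps27a, Fau, Rpl35, Larp1 and the exceptions among libraries were named outside this rule, after their values were seen. Some results that the rule would name are not reported here. Of the 117 list symbols, Nap1l1 stands in 2 lists and Snhg4 has 2 IDs. The 3 libraries of each group differed from each other by more than sampling noise (chi-square per degree of freedom 5.52 to 117), so none was counted as a repeat. Promoter windows are RefSeq's of GRCm38.p6; the files use GRCm39, and no coordinate was converted.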

Additional observations from a re-analysis of the deposited data

Results flagged for a closer look

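No member of the ribosomal protein set met a rule for a closer look. For some related genes named in the text, the change with induction differed between the siRNAs by a test of the difference itself. The test was the edgeR interaction term, Zfp143 siRNA cells minus control cells, at an adjusted p under 0.05. Over all tested genes, 22.5% passed it in either direction. Several of the genes below were named for a small p with Zfp143 siRNA in uninduced cells, which shares libraries with this test. Their calls are therefore no separate support. The difference was positive for Zfp143 (1.22, adjusted p = 0.00358), Myc (1.37, 0.000216), Nop56 (0.98, 0.0145), Grwd1 (0.68, 0.0259), Ubtf (0.64, 0.0107), Mtor (0.63, 0.0328) and Larp1 (0.62, 0.0471). It was negative for Snhg12 (-1.19, 0.00055), Eif4a2 (-1.18, 0.0047), Snhg6 (-0.84, 0.011) and Snhg15 (-0.74, 0.0076). For Larp1 it was lost without any one of 10 libraries (adjusted p up to 0.125) and with RLE factors, library size scaling, limma-voom or a replicate block (0.0502 to 0.0603), for Mtor without any one of 7 (up to 0.0883) and for Grwd1 without any one of 6 (up to 0.0639). For the other 8 genes it was kept with any single library left out, and for Snhg6 it was lost with the transcript length offset (0.086).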

How the results depend on the processing

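The counts of ribosomal protein genes called depended most on uninduced control replicate 3. Leaving out 1 library at a time, the count lower with induction was 73 to 78 in control cells and 76 to 80 in Zfp143 siRNA cells, the count higher with Zfp143 siRNA in uninduced cells 0 to 59, and the interaction count lower 0 to 42; the other counts stayed at 0 to 0. The share of counts was then 3.54% to 3.81% (induced Zfp143 siRNA), 3.38% to 3.69% (induced control), 7.55% to 8.31% (uninduced Zfp143 siRNA) and 6.27% to 7.86% (uninduced control). Without both libraries that stand apart, 64 genes were higher with Zfp143 siRNA in uninduced cells, 40 were lower in the interaction and 1 was higher with induction in control cells; Rpl22l1, outside the set, had 0.42 there. The siRNA count in uninduced cells was 5 with DESeq2 and 5 with no filter. The interaction count was 1 with RLE factors, library size only, no filter, DESeq2 or limma-voom, and 3 with the length offset. As a share of TPM the groups had 12.8%, 12.5%, 21.98% and 20.6%.

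With Zfp143 siRNA in uninduced cells the 21 members negative with all libraries were positive without uninduced control replicate 3. Among those named singly, Rpl7 (0.36 and 0.35), Rpl23a (0.40 and 0.39), Rpl41 (0.46 and 0.45) and Rps27l (0.42 and 0.41) were then called, without that library and without both, and Rpl36al had 0.33 (adjusted p = 0.0693) and, called, 0.32. Without uninduced control replicate 2 the values were -0.22 (Rpl23a), -0.22 (Rpl41), -0.30 (Rpl7) and -0.22 (Rps27l). The cause was not tested. Library size scaling alone moved the median of all genes to 0.21 with induction in control cells and 0.35 in Zfp143 siRNA cells, in place of 0.03 and 0.10, and turned the member median with Zfp143 siRNA in induced cells to 0.02.

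The deviations of same-numbered libraries had correlations of -0.0963 to 0.306, and those of different-numbered libraries -0.279 to 0.249. Some same-numbered pairs were below 0, and the numbers were not taken as pairs. With a replicate block, 76 and 80 genes were lower with induction in control and Zfp143 siRNA cells, 4 were higher with Zfp143 siRNA in uninduced cells, and 0 were called in induced cells or for the interaction.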
